A study of Mus musculus with 22 samples.

Results

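Pltp and 9 further genes of brain lipoprotein and lipid transfer were followed through every library of the study, by treatment and by RNA pool. The rule took the rows of the count table whose Ensembl identifiers belong to 10 listed symbols: the transfer protein gene Pltp, the apolipoprotein genes Apoe, Clu and Apod, the exporters Abca1 and Abcg1, the enzymes Lcat, Lpl and Pla2g3, and the receptor Lrp1. All 10 were found among 39056 genes, and all 10 passed the filter on low counts (a sum of 500 or more counts, and a count above 0 in 3 or more libraries), which kept 14072 genes. Some of these genes entered the list because of how they behaved in these libraries. Pltp was selected on its opposite values in the RNA pools and Pla2g3 on its TRAP values, while Lcat belongs to the pathway lists that the study drew from its contrast between EtOH_TRAP and EtOH + ABT-888_TRAP. Their values in those comparisons are therefore given as a description with no test, and the other 7 genes were chosen for their function. Most other tests of Lcat and Pla2g3 share mice with those comparisons and are not independent of the choice.

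The mice were male, 8 to 12 weeks old and of C57BL/6J background, and every mouse, Control included, carried the transgenes CaMKIIα-tTA and tetO-EGFP/Rpl10a. In these animals the CaMKIIα promoter drives the tTA activator, which switches on a ribosomal protein tagged with EGFP, so that ribosomes of CaMKIIα-expressing cells of the prefrontal cortex (PFC) can be pulled down with their RNA (TRAP). The 3 Control mice received saline and the 4 EtOH mice ethanol at 2 g/kg per day, intraperitoneally, in 2 injections a day set 2 h apart for 4 days. The 4 EtOH + ABT-888 mice received the same ethanol and, on the last day, 25 mg/kg of ABT-888, an inhibitor of PARP enzymes. PFC was collected 2 h after the last injection, and each of the 11 mice gave a TRAP and a total-RNA library, 22 in all.

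In the brain, cholesterol and phospholipids travel between cells on particles that astrocytes build around apolipoproteins, with Apoe as the main one and Clu (apolipoprotein J) as another. Abca1 and Abcg1 load lipid onto these particles, Lcat esterifies their cholesterol, Pltp moves phospholipid between them, and Lrp1, a large endocytic receptor, takes them up into neurons and glia. Lpl and Pla2g3 are lipid-cleaving enzymes, a lipase and a secreted phospholipase A2. Apod is a small lipid carrier of the lipocalin family, known in the brain from oligodendrocytes and perivascular cells.

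Depth ran from 6570957 to 22002618 counted reads over the 11 TRAP libraries and from 22132534 to 32421392 over the 11 total-RNA libraries, and the smallest library was EtOH + ABT-888_TRAP of mouse 2. Mice are numbered within their treatment, and the same number in TRAP and total-RNA is the same mouse. EtOH + ABT-888 mouse 1 stood apart in both pools. Over the 737 genes called between EtOH_TRAP and Control_TRAP, its mean log2 difference from Control, signed by the direction of EtOH, was 0.42, against 0.82 to 1.42 in the other EtOH + ABT-888 mice. Over the 2482 genes called in total-RNA it was 0.21, against 0.53 to 0.91. In both pools it thus lay nearer to Control than the other EtOH + ABT-888 mice. It was kept in the group of its label, and most results on EtOH + ABT-888 are also given without it. The genes it was judged on include Apod and Abcg1 in TRAP, and Apod, Abca1, Abcg1, Lcat and Pla2g3 in total-RNA. Leaving it out therefore tends to move its group toward EtOH, and calls gained that way are no independent support. Glial markers were unequal among TRAP libraries: the summed level of 10 astrocyte markers was 402 CPM in EtOH mouse 1 and between 90.7 and 172 CPM in the other EtOH mice, against 120 to 216 CPM in Control.

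In these libraries the pull-down depleted glial RNA without a detected enrichment of the driver gene. In preliminary TRAP experiments the paper measured Egfp and CamKIIα transcripts as higher in TRAP than in total-RNA. All 10 astrocyte and all 10 oligodendrocyte markers were lower in TRAP than in total-RNA in each treatment (edgeR's quasi-likelihood test), and S100b, an astrocyte gene, averaged 9.51 ± 2.80 CPM in Control_TRAP and 89.3 ± 6.9 CPM in Control_total-RNA (SD, n = 3 each). Camk2a, the gene of the promoter, averaged 1883 ± 149 CPM and 2092 ± 244 CPM in the same groups and did not pass the test (adjusted p = 0.203). Over all TRAP libraries the sum of 6 excitatory neuron markers lay between 2207 and 3269 CPM, overlapping at its top the 3040 to 4125 CPM of total-RNA, and 5 of the 6 were lower in TRAP in each treatment. The sum of 6 interneuron markers lay between 1656 and 2291 CPM, above the 701 to 1004 CPM of total-RNA, but only Slc32a1, Gad1 and Gad2 of the 6 were higher in TRAP in each treatment, while Pvalb was lower in each and Vip in EtOH and EtOH + ABT-888. Of all genes, 59.9%, 50.7% and 41.0% differed between pools in Control, EtOH and EtOH + ABT-888, in either direction. In tissue of this kind, fewer cells of a type and less RNA per cell cannot be told apart.

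Pltp lies on the minus strand of chromosome 2 (mm10, chr2:164839518-164857711), and its far end shares 495 exon bases with Ctsa, a lysosomal protease gene on the opposite strand. The sources used here do not give the strand setting of the counting, so reads from the shared bases may belong to either gene. Upstream sequence was present for 6 of the 10 genes in the RefSeq promoter table (build GRCm38.p6). The 250 bases before the start site are shown for Pltp, for Apod, which rose in both pools, and for Abca1, which rose in total-RNA, from 5′ to 3′ on the strand of the gene, with matches to 5 short motifs in capitals.

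Pltp, chr2:164857709-164857958, minus strand: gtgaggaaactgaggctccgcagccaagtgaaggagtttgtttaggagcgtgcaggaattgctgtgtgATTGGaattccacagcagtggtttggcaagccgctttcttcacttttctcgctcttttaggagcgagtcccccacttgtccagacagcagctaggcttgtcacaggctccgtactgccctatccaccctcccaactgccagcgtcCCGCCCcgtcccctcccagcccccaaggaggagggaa
Apod, chr16:31314809-31315058, minus strand: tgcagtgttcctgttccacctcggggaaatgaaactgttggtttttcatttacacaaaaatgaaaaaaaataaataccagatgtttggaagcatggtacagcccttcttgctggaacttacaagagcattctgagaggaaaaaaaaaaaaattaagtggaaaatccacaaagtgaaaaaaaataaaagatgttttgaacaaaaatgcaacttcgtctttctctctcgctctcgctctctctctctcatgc
Abca1, chr4:53159896-53160145, minus strand: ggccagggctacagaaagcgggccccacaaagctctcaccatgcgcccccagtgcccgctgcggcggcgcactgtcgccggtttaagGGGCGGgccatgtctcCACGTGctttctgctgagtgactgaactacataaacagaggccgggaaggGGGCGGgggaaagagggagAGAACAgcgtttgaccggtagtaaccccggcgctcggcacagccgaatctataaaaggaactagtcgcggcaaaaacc

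The motifs were searched on both strands: the CCAAT box (CCAAT, in 33.8% of the 32851 windows of the table), the GC box (GGGCGG, 32.7%), the E-box (CACGTG, 6.02%), the half-site of the glucocorticoid receptor (AGAACA, 16.1%) and the half-site of LXR and other nuclear receptors (AGGTCA, 14%). The Pltp window held a CCAAT box and a GC box, both on the reverse strand, with their first letters 182 and 37 bases before the start site. The Abca1 window held 2 GC boxes, an E-box and a glucocorticoid half-site, and the Apod window held none of the 5. None of the windows of these 6 genes, of which Apoe has 3, held AGGTCA or a direct repeat of it with a gap of 4 bases and up to 1 mismatch per half-site, which 1.48% of all windows held. Repeats with more mismatches were not searched for, so the windows may still hold one. A match is a run of letters in this window, and none of these was tested as a site.

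Pltp, the phospholipid transfer protein, had values that went opposite ways in the RNA pools. In TRAP, Control mice stood at 2.88, 2.16 and 3.01 CPM, EtOH mice at 11.7, 10.3, 6.78 and 4.56 CPM, and EtOH + ABT-888 mice at 5.82, 6.00, 5.86 and 5.05 CPM. All 8 treated libraries lay above all 3 Control libraries, and EtOH and EtOH + ABT-888 overlapped. These levels rest on 27 to 53 reads per Control_TRAP library and 67 to 222 per EtOH_TRAP library. In total-RNA, Control mice stood at 23.7, 25.3 and 19.2 CPM, EtOH mice at 12.5, 12.6, 11.3 and 12.5 CPM, and EtOH + ABT-888 mice at 20.4, 10.3, 10.2 and 11.9 CPM. Every EtOH library lay below every Control library there, and EtOH + ABT-888 mouse 1 was the one treated mouse inside the Control range.

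**Figure D1:**
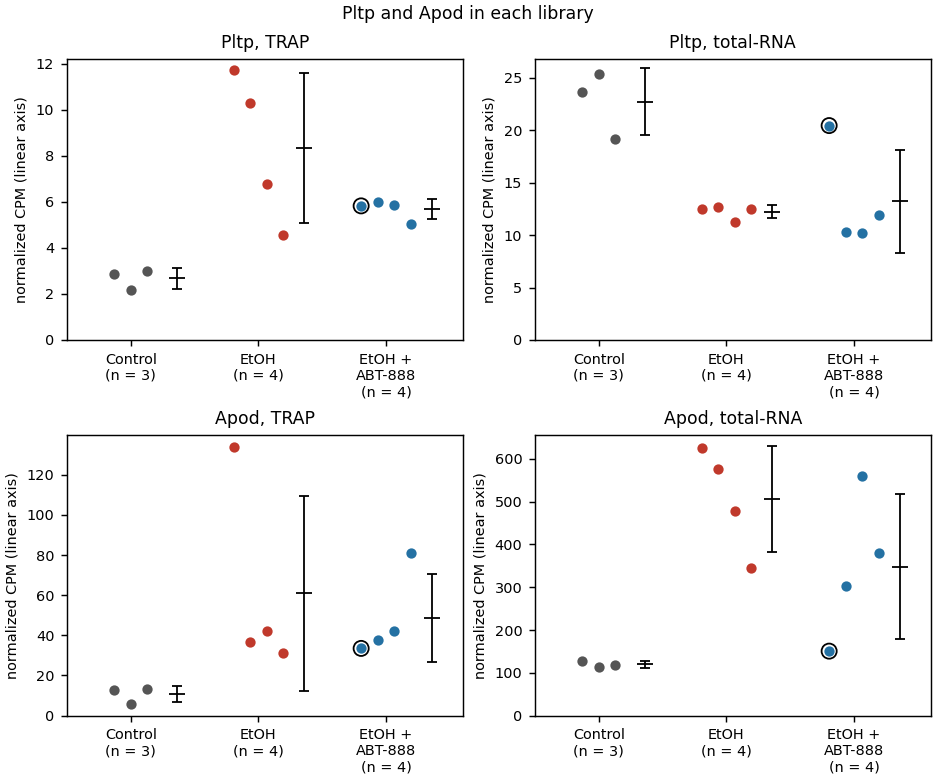
Normalized CPM of Pltp (top) and Apod (bottom) in TRAP (left) and total-RNA (right) on linear axes from 0, 1 point per library, with the group mean and SD beside the points and EtOH + ABT-888 mouse 1 ringed. Pltp is higher than Control in every treated TRAP library and lower in every EtOH_total-RNA library, whereas Apod is higher than Control in every treated library of both pools.

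Against Control, the fitted Pltp difference was a log2 fold change of 1.65 (SE 0.37) for EtOH in TRAP and -0.89 (SE 0.14) in total-RNA, that is 3.15-fold higher and 1.86-fold lower. For EtOH + ABT-888 it was 1.09 (SE 0.35) in TRAP and -0.78 (SE 0.24) in total-RNA. Without mouse 1 those values were 1.09 and -1.07. Since Pltp was selected on these values, no test is given for them, nor for the difference of EtOH + ABT-888 from EtOH, which was -0.56 (SE 0.33) in TRAP and 0.11 (SE 0.22) in total-RNA. The latter was -0.17 (SE 0.16) without mouse 1. Both treated groups share the Control libraries.

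Set against the total-RNA of the same mouse, Pltp TRAP levels were on a log2 scale -3.02, -3.52 and -2.65 in Control, -0.09, -0.29, -0.73 and -1.44 in EtOH, and -1.8, -0.77, -0.79 and -1.24 in EtOH + ABT-888. The Control mice lay below all treated mice, and the highest ratios were those of EtOH mice 1 and 2. Only the comparison of EtOH + ABT-888_TRAP with EtOH + ABT-888_total-RNA did not enter the choice of Pltp. There it was 2.33-fold lower in TRAP (log2 fold change -1.22, SE 0.27, adjusted p = 0.00421 edgeR's quasi-likelihood test, adjusted after Benjamini and Hochberg). Without mouse 1 the difference was -0.94 (SE 0.27, adjusted p = 0.0217 by the same test).

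Ctsa, which shares exon bases with Pltp, had no opposite signs. It averaged 74.1 ± 6.8 CPM in Control_TRAP (n = 3) and 100.4 ± 15.5 CPM in EtOH_TRAP (n = 4), and 64.5 ± 5.4 and 73.8 ± 4.4 CPM in total-RNA. Its log2 fold changes of 0.46 and 0.20 had the same sign in both pools and did not pass the test (edgeR's quasi-likelihood test, adjusted p = 0.114 and 0.204).

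Vascular and meningeal cells, which are known to express Pltp, have markers in these libraries that were set beside it. In total-RNA the sum of 7 pericyte and fibroblast markers lay between 110 and 127 CPM in Control, between 74.9 and 101 CPM in EtOH, at 121 CPM in EtOH + ABT-888 mouse 1 and between 84.9 and 86.4 CPM in the other EtOH + ABT-888 mice. By edgeR's quasi-likelihood test, 3 of those 7 markers were lower in EtOH_total-RNA and none was higher. Of all genes, 17.6% passed in that comparison, in either direction. The sum of 9 endothelial markers lay between 108.5 and 134 CPM in Control and between 87.8 and 154 CPM in EtOH, and there too 3 of the markers, Tek, Itm2a and Flt1, were lower and none was higher. In TRAP the pericyte and fibroblast sum was 9.10 to 27.0 CPM in Control and 4.36 to 23.9 CPM in EtOH, and that of endothelial markers 17.9 to 25.1 and 14.1 to 42.8 CPM. Fibroblast Dcn was above 0 in every library. The sum of the choroid plexus markers, of which 3 of 5 passed the filter, was 109 CPM in Control_total-RNA of mouse 2, 39.3 CPM in EtOH + ABT-888_total-RNA of mouse 1 and 5.57 to 18.1 CPM in the other total-RNA libraries. The part of these cells in the Pltp values was not tested.

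Of all genes outside the list, those whose log2 CPM followed Pltp most closely over the 11 TRAP libraries were Crym (Pearson's r = 0.969, Spearman's rho = 0.909), Ubxn1 (0.957, 0.918), Wdr6 (0.945, 0.827), Bex2 (0.940, 0.873) and Rasal1 (0.936, 0.873). Leaving out the 2 libraries farthest from the Pltp median, r was 0.895 to 0.943. Over the 11 total-RNA libraries they were Syndig1 (r = 0.979, rho = 0.936), Phf24 (0.965, 0.855), Wars (0.965, 0.727), Sept11 (0.960, 0.782) and Scrn1 (0.959, 0.864), with r of 0.916 to 0.968 without the 2 farthest libraries. No gene was among the 5 in both pools. The 11 libraries of a pool share 3 treatments, so that an r over them also holds the differences between groups. Among the 10 genes, Apod was the nearest to Pltp in TRAP (r = 0.858, and 0.706 without the 2 farthest) but ran opposite to it in total-RNA (r = -0.892 and -0.819).

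Between pools, 7 of the 8 genes tested differed in Control mice, and 59.9% of all genes did (edgeR's quasi-likelihood test at an adjusted p under 0.05). In EtOH mice it was again 7 of 8, against 50.7% of all genes, and in EtOH + ABT-888 mice 8 of 9, Pltp included, against 41.0%, and again 8 of 9, against 36.2%, without both libraries of mouse 1. In each treatment Apoe, Clu, Apod, Abca1 and Lcat were lower in TRAP, Abcg1 and Lpl were higher, and Lrp1 did not pass (0.10, SE 0.15, adjusted p = 0.621 in EtOH + ABT-888 without both libraries of mouse 1, edgeR's quasi-likelihood test). Lcat is counted among the tested genes although its EtOH_TRAP and EtOH + ABT-888_TRAP libraries entered its choice. In those 2 treatments its call is therefore no independent support. The median log2 difference over the tested genes was -1.96, -2.12 and -1.95 in Control, EtOH and EtOH + ABT-888, beside 0.02, 0.03 and 0.05 over all genes.

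The apolipoprotein genes were depleted by the pull-down. Apoe was 12.4-fold lower in Control_TRAP than in Control_total-RNA (log2 fold change -3.64, SE 0.20, adjusted p = 1.73e-07), Apod was 11.6-fold lower (-3.54, SE 0.23, adjusted p = 3.91e-07) and Clu was 4.46-fold lower (-2.16, SE 0.13, adjusted p = 2.85e-07, edgeR's quasi-likelihood test). Lcat was 9.99-fold lower (-3.32, SE 0.33, adjusted p = 7.89e-06) and Abca1 3.40-fold lower (-1.77, SE 0.12, adjusted p = 6.15e-07), beside 9.59-fold for the astrocyte gene S100b.

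Lpl had the largest positive difference of the 10 genes. It stood at 132, 151 and 134 CPM in Control_TRAP and at 22.7, 24.4 and 28.9 CPM in the total-RNA of the same mice, which made it 5.41-fold higher in TRAP (log2 fold change 2.44, SE 0.11, adjusted p = 6.59e-08 by edgeR's quasi-likelihood test). Abcg1 was 1.63-fold higher (0.70, SE 0.09, adjusted p = 4.58e-05). Its sister exporter Abca1 thus lay on the other side of 0 in every mouse, as the plot of ratios by mouse shows. Lrp1 was close to equal in the pools, with log2 fold changes of -0.04 (SE 0.09) in Control, 0.29 (SE 0.14) in EtOH and 0.10 (SE 0.18) in EtOH + ABT-888 (adjusted p = 0.745, 0.112 and 0.681, edgeR's quasi-likelihood test). Without EtOH_TRAP of mouse 2 it passed in EtOH (0.38, SE 0.13, adjusted p = 0.0335 by the same test). In Control, Pla2g3, given as a description, differed by -0.58 (SE 0.51).

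**Figure D2:**
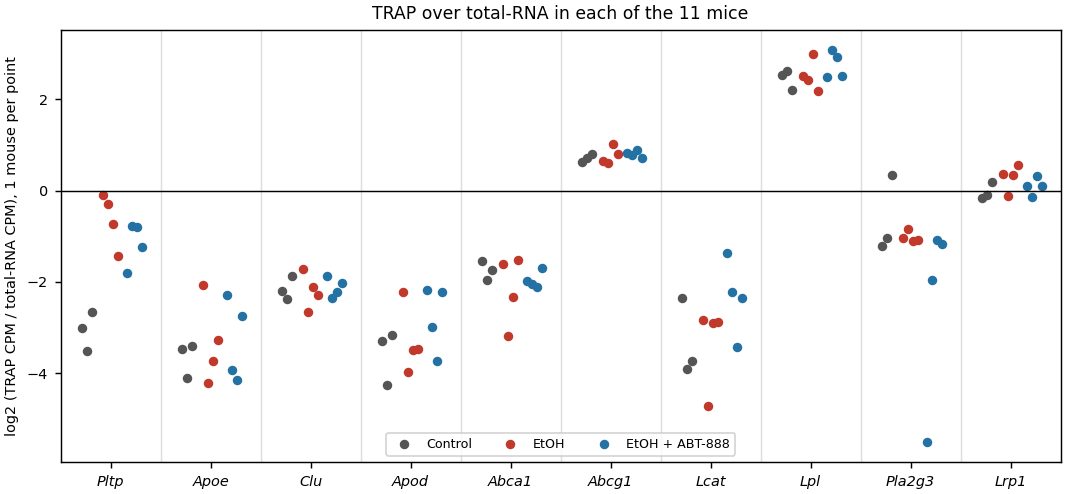
Log2 ratio of TRAP to total-RNA normalized CPM for each of the 10 genes, 1 point per mouse, with Control in grey, EtOH in red and EtOH + ABT-888 in blue. Lpl and Abcg1 lie above 0 in all 11 mice, Apoe, Clu, Apod, Abca1 and Lcat lie below 0 in all 11, and Pltp is the gene in which the Control mice lie below all treated mice.

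Ordered by CPM per kb of merged exon length, Control_total-RNA was led by Apoe (452 ± 43, n = 3), then Clu (198 ± 16), Apod (46.4 ± 2.8), Lrp1 (38.1 ± 3.3), Lcat (12.1 ± 0.8), Abcg1 (10.7 ± 0.6), Pltp (8.87 ± 1.24), Abca1 (6.77 ± 0.41), Lpl (2.42 ± 0.31) and Pla2g3 (0.22 ± 0.09). No neighbours in this order overlapped between libraries. In Control_TRAP the order was Clu (44.9 ± 8.2 CPM per kb), Lrp1 (37.5 ± 1.6), Apoe (36.8 ± 11.2), Abcg1 (17.6 ± 0.8), Lpl (13.2 ± 1.0), Apod (4.12 ± 1.59), Abca1 (2.03 ± 0.32), Lcat (1.38 ± 1.01), Pltp (1.05 ± 0.18) and Pla2g3 (0.15 ± 0.08). Clu, Lrp1 and Apoe overlapped there, and so did Apod, Abca1, Lcat and Pltp, each with the next. In EtOH_TRAP Pltp stood at 3.25 ± 1.27 CPM per kb (n = 4), overlapping Abca1 at 2.61 ± 1.09.

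EtOH was compared with Control in TRAP to ask which RNA changed in the pull-down. Glial markers such as Aqp4 and Mog were counted in every TRAP library, so a change there need not lie on tagged ribosomes. Of the 8 genes tested, 2 rose, Apod and Abcg1, and none fell, while 5.24% of all genes passed in either direction. The median log2 difference over the 8 was 0.41, beside 0.02 over all genes. In total-RNA, 5 of the 9 genes tested passed, against 17.6% of all genes: Apod, Abca1, Abcg1 and Pla2g3 rose and Lcat fell. Of these, Pla2g3 and Lcat had been chosen on TRAP values that include the same EtOH mice. The median in total-RNA was 0.48, beside 0.00 over all genes. Libraries of EtOH and Control did not overlap for 4 of the 10 genes in TRAP, Pltp and Pla2g3 among them, against 22.3% of all genes. In total-RNA they did not overlap for 7 of the 10, against 30.5% of all genes.

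Apod rose in both pools. In TRAP, Control mice stood at 12.9, 5.87 and 13 CPM and EtOH mice at 134, 36.7, 42.4 and 31.2 CPM. In total-RNA, Control mice stood at 127.5, 113.0 and 118.0 CPM and EtOH mice at 627, 577, 478 and 345 CPM. No EtOH library overlapped Control in either pool, and EtOH mouse 1 was the highest in both. The rise was 5.78-fold in TRAP (log2 fold change 2.53, SE 0.49, adjusted p = 0.0155) and 4.24-fold in total-RNA (2.09, SE 0.17, adjusted p = 3.36e-05, edgeR's quasi-likelihood test). Without EtOH mouse 1 the rise in TRAP was 3.56-fold (adjusted p = 0.0101), and without any 1 of the 3 Control_TRAP libraries it did not pass the test (adjusted p up to 0.0856).

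Oligodendrocyte RNA, a known source of Apod, was set beside it. The sum of 10 oligodendrocyte markers was 352 to 464 CPM in Control_TRAP, 750 CPM in EtOH_TRAP of mouse 1 and 328 to 422 CPM in EtOH mice 2 to 4. In total-RNA it was 2475 to 2755 CPM in Control and 2359 to 2924 CPM in EtOH, where 1 of the 10 markers was higher and 2 were lower by edgeR's quasi-likelihood test. Of all genes, 17.6% passed there in either direction. Mog was detected in all 22 libraries. The part of these cells in the Apod values was not tested.

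The exporters rose together in total-RNA. Abca1 stood at 72.9, 72.3 and 65.2 CPM in Control and at 103, 115, 120.3 and 109.9 CPM in EtOH, a 1.60-fold rise with no overlap (log2 fold change 0.68, SE 0.10, adjusted p = 0.00126). Abcg1 stood at 79.8, 82.2 and 73.2 CPM in Control and at 102, 126, 98.6 and 109 CPM in EtOH, a 1.39-fold rise (0.48, SE 0.11, adjusted p = 0.0125, edgeR's quasi-likelihood test). In TRAP, Abcg1 passed and Abca1 did not. Abcg1 stood at 124, 135 and 128 CPM in Control and at 161, 193, 200.2 and 192 CPM in EtOH (1.47-fold, 0.55, SE 0.14, adjusted p = 0.0412), again with no overlap. The Abca1 values there, 24.9, 18.6 and 19.6 CPM in Control and 33.8, 12.6, 23.7 and 38.0 CPM in EtOH, overlapped and did not pass (0.37, SE 0.30, adjusted p = 0.492). Whether these changes differed between pools is given with the interaction. The Abcg1 call in TRAP was lost without any 1 Control library and without EtOH mouse 2 or 3 (adjusted p up to 0.191). In total-RNA the Abcg1 call was lost without Control mouse 1 or 3 (adjusted p = 0.0558 and 0.0643), and neither Abcg1 nor Abca1 passed when all 22 libraries were fitted together (adjusted p = 0.0583 and 0.169, edgeR's quasi-likelihood test).

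Lcat, which esterifies cholesterol on lipoproteins, moved the other way in total-RNA. It stood at 17.6, 15.6 and 15.7 CPM in Control and at 9.65, 8.48, 10.9 and 11.3 CPM in EtOH. Every EtOH library was lower, by 1.61-fold (log2 fold change -0.69, SE 0.15, adjusted p = 0.0082 by edgeR's quasi-likelihood test). Without Control mouse 1 its adjusted p was 0.0537, and with all 22 libraries fitted together it was 0.432. In TRAP it was counted 6 to 32 times per library in Control and EtOH. The difference of -0.67 (SE 0.66, adjusted p = 0.58) did not pass edgeR's quasi-likelihood test. Without Control mouse 1 it was 0.08 (SE 0.76).

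Pla2g3, a secreted phospholipase A2, was a low gene, with 21 to 37 reads per Control_total-RNA library. In total-RNA it stood at 1.54, 0.73 and 0.84 CPM in Control and at 4.52, 4.98, 4.48 and 6.84 CPM in EtOH. This was a 5.08-fold rise with no overlap (log2 fold change 2.34, SE 0.30, adjusted p = 5.61e-04 by edgeR's quasi-likelihood test), which did not pass when all 22 libraries were fitted together (adjusted p = 0.0568). Pla2g3 was selected on TRAP values of the same mice, so this test is not independent of its choice. In TRAP, where it was selected on its values, Control mice stood at 0.64, 0.33 and 1.08 CPM and EtOH mice at 2.18, 2.74, 2.06 and 3.20 CPM. That is a description with a log2 fold change of 1.90 (SE 0.53). Pla2g3 (chr11:3488284-3499350, plus strand) shares 401 exon bases with Inpp5j on the opposite strand. Inpp5j, named here after its values were seen, went the other way, with a log2 fold change of -0.58 (SE 0.14, adjusted p = 0.0125) in EtOH_total-RNA and -0.46 (SE 0.22, adjusted p = 0.223) in EtOH_TRAP.

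Apoe, Clu, Lpl and Lrp1 did not pass in either pool by edgeR's quasi-likelihood test over the genes kept, although Lpl and Clu passed under some alternatives. In total-RNA, Apoe stood at 966 ± 92 CPM in Control (n = 3) and 916 ± 151 CPM in EtOH (n = 4), a log2 fold change of -0.07 (SE 0.13, adjusted p = 0.721). In TRAP its levels lay beside unequal astrocyte sums. It reached 222 CPM in EtOH mouse 1, whose astrocyte sum was 402 CPM, and stood at 44.9, 83.4 and 78.9 CPM in EtOH mice 2 to 4, with sums of 90.7, 172 and 159 CPM, against 95.7, 51.4 and 88.9 CPM in Control, with sums of 215.5, 120 and 212 CPM. The log2 fold change of Apoe in TRAP was 0.45 (SE 0.41, adjusted p = 0.546) with mouse 1 and -0.16 (SE 0.27, adjusted p = 0.758) without it.

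Lpl stood at 132 to 151 CPM in Control_TRAP and 141, 235, 263 and 187 CPM in EtOH_TRAP (log2 fold change 0.60, SE 0.20, adjusted p = 0.106), and its difference in total-RNA was 0.49 (SE 0.18, adjusted p = 0.0782, edgeR's quasi-likelihood test). Without EtOH mouse 1 both passed, with adjusted p = 0.0299 in TRAP and 0.0142 in total-RNA. Lpl also passed in both with DESeq2 (adjusted p = 0.0495 in TRAP and 0.0417 in total-RNA, where 10.8% and 22.1% of all genes did) and with edgeR's quasi-likelihood test and no filter on low counts (adjusted p = 0.0208 and 0.01, with 6.13% and 12.8% of all genes). Clu differed by 0.27 in each pool (SE 0.21 in TRAP and 0.10 in total-RNA, adjusted p = 0.458 and 0.0659). In total-RNA its 4 EtOH libraries, at 765 to 880 CPM, lay above the 3 Control libraries, at 643 to 745 CPM, and it passed there with DESeq2 (adjusted p = 0.0381) and, by edgeR's quasi-likelihood test, without EtOH mouse 4 (adjusted p = 0.0382). Lrp1 differed by 0.25 (SE 0.15, adjusted p = 0.351) in TRAP and -0.09 (SE 0.10, adjusted p = 0.537) in total-RNA.

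**Figure D3:**
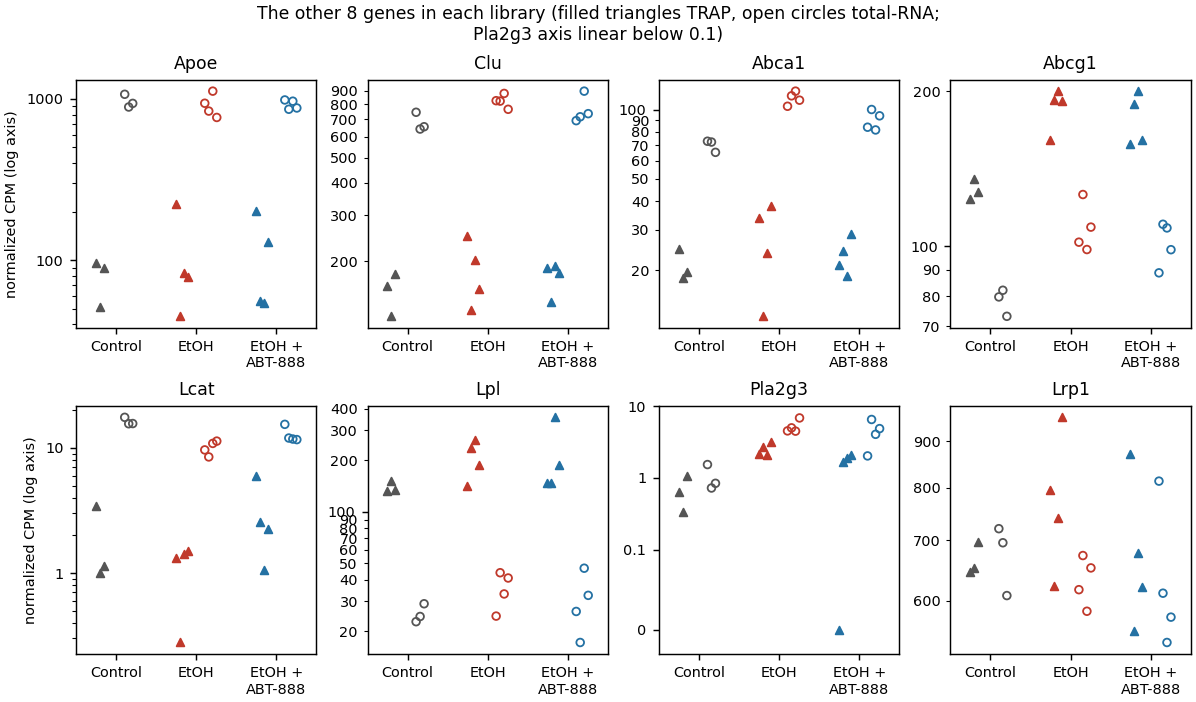
Normalized CPM of the other 8 genes in each library on log axes (the axis of Pla2g3 is linear below 0.1), with filled triangles for TRAP and open circles for total-RNA, for 3 Control, 4 EtOH and 4 EtOH + ABT-888 mice. Abca1, Abcg1 and Pla2g3 in EtOH_total-RNA lie above all Control_total-RNA libraries and Lcat below them, and Pla2g3 had 0 counts in EtOH + ABT-888_TRAP of mouse 1.

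EtOH + ABT-888 was compared with the same Control libraries. In TRAP, 1 of the 8 genes tested passed, Apod, against 0.476% of all genes. Apod stood at 33.5, 37.8, 42.3 and 81.1 CPM, above every Control library, which made it 4.66-fold higher (log2 fold change 2.22, SE 0.36, adjusted p = 0.0277), and 5.17-fold higher without mouse 1 (adjusted p = 0.00613, edgeR's quasi-likelihood test), where 2.65% of all genes passed. The call was lost without any 1 Control library and without EtOH + ABT-888 mouse 2 or 4 (adjusted p up to 0.17). The highest of these libraries, that of mouse 4, also had the highest oligodendrocyte sum, 1513 CPM, and mouse 1 had 904 CPM, against 329 and 476 CPM in mice 2 and 3. Abcg1 stood at 158, 189, 200 and 161 CPM (0.47, SE 0.16, adjusted p = 0.236, and 0.53, SE 0.16, adjusted p = 0.0975 without mouse 1). Pla2g3 stood at 0, 1.65, 1.90 and 2.12 CPM, and 0 of 12401034 reads in mouse 1 allows up to 0.242 CPM (3 counts, covering counting error only).

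In total-RNA, none of the 9 genes tested passed for EtOH + ABT-888 by edgeR's quasi-likelihood test, against 0.263% of all genes, although 5 had an unadjusted p under 0.05, as did 15.9% of all genes. DESeq2 and edgeR's exactTest each called 2 of the 9, Apod and Pla2g3, against 4.41% and 3.87% of all genes. Without mouse 1 the quasi-likelihood test called 3, Apod, Abcg1 and Pla2g3, and 6.18% of all genes. All 3 are among the genes on which mouse 1 was picked out. Apod stood at 151 CPM in mouse 1 and at 303, 560.1 and 379.9 CPM in the others (log2 fold change 1.55, SE 0.34, adjusted p = 0.0836, and 1.80, SE 0.20, adjusted p = 0.00192 without mouse 1). Pla2g3 stood at 2.03 CPM in mouse 1 and at 6.51, 4.05 and 4.86 CPM in the others (2.09, SE 0.42, adjusted p = 0.0652, and 2.33, SE 0.33, adjusted p = 0.00665 without mouse 1). Lcat stood at 15.4 CPM in mouse 1, close to Control, and at 12, 11.8 and 11.7 CPM in the others (-0.35, SE 0.15, adjusted p = 0.285, and -0.46, SE 0.14, adjusted p = 0.0884 without it).

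Abca1 stood at 83.8, 100.1, 81.6 and 94.0 CPM in EtOH + ABT-888_total-RNA, above every Control and below every EtOH library (against Control 0.36, SE 0.11, adjusted p = 0.171, and 0.39, SE 0.12, adjusted p = 0.0753 without mouse 1). Against EtOH it differed by -0.32 (SE 0.11), the only one of the 9 genes with an unadjusted p under 0.05, and the adjusted p was 1. Without mouse 1 the difference was -0.29 (SE 0.12). Lcat also lay between the groups, with every EtOH + ABT-888_total-RNA library below every Control and above every EtOH library. These 2 of the 10 genes did not overlap EtOH in total-RNA, against 1.36% of all genes.

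**Figure D4:**
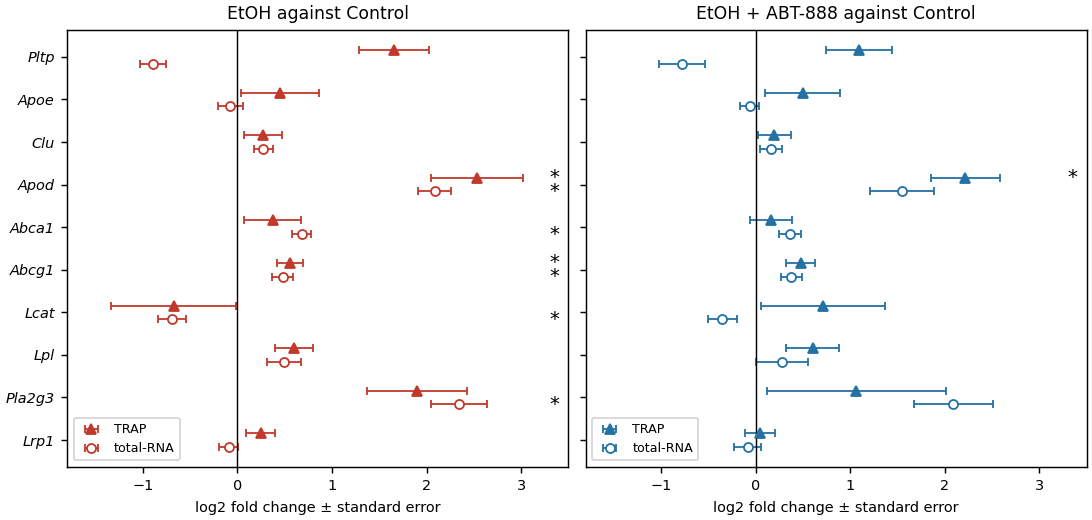
Log2 fold change against Control with its standard error for EtOH (left) and EtOH + ABT-888 (right), filled triangles for TRAP and open circles for total-RNA, with an asterisk at the right edge where a tested gene passed an adjusted p of 0.05. Pltp, shown as a description with no test, lies above 0 in TRAP and below 0 in total-RNA by more than its standard errors for both treatments, which Lcat does for EtOH + ABT-888 with mouse 1 (0.72, SE 0.66 in TRAP) but not without it (0.11, SE 0.64), and Apod lies furthest to the right in TRAP.

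EtOH + ABT-888 was compared with EtOH to ask what the inhibitor changed, and no tested gene of the 10 passed. By edgeR's quasi-likelihood test, none of the 7 genes tested passed in TRAP, where 0.0% of all genes did, with log2 differences between -0.31 (Apod) and 0.05 (Apoe) and standard errors of 0.16 to 0.45. None of the 9 passed in total-RNA, again with 0.0% of all genes, and their differences lay between -0.54 (Apod) and 0.34 (Lcat) with standard errors of 0.11 to 0.31. Without EtOH + ABT-888 mouse 1 the differences lay between -0.40 (Apoe) and 0.15 (Lpl) in TRAP and between -0.29 (Apod) and 0.23 (Lcat) in total-RNA. Without EtOH mouse 1, Apod in TRAP was 0.39 (SE 0.29). At an unadjusted p under 0.05 it was 0 of 7 in TRAP and 1 of 9 in total-RNA, against 0.966% and 1.91% of all genes. The tests exactTest and DESeq2 called none of these genes in either pool, and of all genes they called 0 in TRAP and 2 in total-RNA. Lcat in TRAP, given as a description, stood at 5.99, 2.55, 1.05 and 2.24 CPM in EtOH + ABT-888 and at 1.31, 0.28, 1.43 and 1.5 CPM in EtOH, a log2 difference of 1.38 (SE 0.64), and 0.79 (SE 0.68) without mouse 1.

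Whether a change against Control differed between pools was tested as an interaction over all 22 libraries. None of the 8 genes tested passed for EtOH, where 0.0213% of all genes did, and none for EtOH + ABT-888, where 0.0% did (edgeR's quasi-likelihood test). At an unadjusted p under 0.05 it was 0 of 8 in both, against 4.87% and 3.38% of all genes. The likelihood ratio test and DESeq2 likewise called none of the 8, and of all genes 16 each for EtOH and 6 and 4 for EtOH + ABT-888. The differences, TRAP minus total-RNA, lay between -0.31 (Abca1) and 0.52 (Apoe) for EtOH, with standard errors of 0.17 to 0.71, and between -0.21 (Abca1) and 1.10 (Lcat) for EtOH + ABT-888. Without EtOH + ABT-888 mouse 1 the latter lay between -0.19 (Abca1) and 0.57 (Lcat). Without EtOH mouse 1, Apoe was -0.098 (SE 0.51) for EtOH. For Pltp, as a description, the differences were 2.53 (SE 0.40) for EtOH and 1.86 (SE 0.40) for EtOH + ABT-888. The latter was 2.14 (SE 0.38) without EtOH + ABT-888 mouse 1.

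Around these genes, 6 lists of the same pathway held 63 further genes, of which 44 passed the filter. In EtOH_TRAP 2 of the 44 passed the test, 4.55%, and in EtOH_total-RNA 9 did, 20.5%, shares near those of all genes. None passed for EtOH + ABT-888 in either pool by edgeR's quasi-likelihood test. Of 8 nuclear receptors that govern lipid transport, 1 rose and 3 fell in EtOH_total-RNA, 50.0% beside the 17.6% of all genes. Nr1h3 and Nr1h2, the LXR receptors that switch on Abca1 and Abcg1, fell by 1.68 (SE 0.29, adjusted p = 0.00289) and 0.67 (SE 0.13, adjusted p = 0.00442) on the log2 scale, and Rxra, an RXR partner of LXR, rose 1.41-fold (adjusted p = 0.0152). Nr1h3 was low, at 1.89 ± 0.12 CPM in Control (n = 3) and 0.58 ± 0.17 CPM in EtOH (n = 4). Rxrg, another RXR, fell by 0.92 in EtOH_TRAP (SE 0.14, adjusted p = 0.00637), from 328 ± 44 to 171 ± 17 CPM.

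Of 13 lipases and genes of esterification and intracellular handling, 11 passed the filter. Angptl4, a secreted inhibitor of Lpl, rose 7.14-fold in EtOH_total-RNA, from 0.98 ± 0.14 CPM (n = 3) to 7.01 ± 3.48 CPM (n = 4, log2 fold change 2.84, SE 0.37, adjusted p = 6.62e-04 by edgeR's quasi-likelihood test). Soat1, which esterifies cholesterol inside cells, fell by 1.26 on the log2 scale in EtOH_TRAP (SE 0.30, adjusted p = 0.0352). Of 13 lipoprotein receptors and uptake genes that passed the filter, 3 fell and none rose in EtOH_total-RNA, 23.1% beside the 17.6% of all genes. Sorl1, a sorting receptor of the LDL receptor family, fell by 0.56 (SE 0.10, adjusted p = 0.00368). Of 8 further exporters 1 fell there, none of 4 phospholipases A2 passed in either pool, and none of the 9 further apolipoproteins passed the filter.

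Microglial RNA, with which Abca1 and Nr1h3 are commonly associated, was lower in EtOH_total-RNA. The sum of 10 microglia markers lay between 428 and 446 CPM in Control, between 210.1 and 322 CPM in EtOH and between 222 and 369 CPM in EtOH + ABT-888, and 6 of the 10 were lower in EtOH with none higher by edgeR's quasi-likelihood test. Of all genes, 17.6% passed in EtOH_total-RNA in either direction. Csf1r and Tmem119 were above 0 in every library. Of 10 astrocyte markers in EtOH_total-RNA, Gjb6, Sox9 and Gfap were higher and Aqp4 was lower by the same test, and their sum lay between 1668 and 1880 CPM in Control, between 1688 and 2052 CPM in EtOH and between 1615 and 1928 CPM in EtOH + ABT-888. The part of both cell types in the values of Abca1, Nr1h3 and Nr1h2 was not tested.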

How the data were processed

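RNA of the PFC of 11 mice was sequenced after TRAP and, from the same lysates, as total-RNA. The authors depleted ribosomal RNA, aligned paired-end reads to mm10 with STAR and deposited the raw counts of featureCounts per Ensembl gene, which are whole numbers with no normalization. Versions and strand settings are not given in the sources used here, nor is what was done with multi-mapping reads. Every column of the table, 22 in all, was used.

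From these counts, genes with at least 500 counts in total and detected in at least 3 libraries were kept (14072 of 39056), and normalized CPM were computed with TMM factors over the 22 libraries, with a prior count of 1 for log2 values. R 4.3.3, edgeR 4.0.16, limma 3.58.1 and DESeq2 1.42.0 were used. Each comparison was fitted to the libraries of its groups, and the interaction to all 22, with edgeR's quasi-likelihood test and Benjamini-Hochberg adjustment over all genes kept, at an adjusted p under 0.05. All adjusted p-values come from this test unless another is named. The script was tested on simulated data.

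The genes and lists were chosen with earlier results of these data known. All 10 genes are named, and of the pathway lists those with the smallest p among the called, up to 3 per direction in each comparison with Control. Similar genes are the 5 with the highest r with Pltp in each pool. Names, positions, overlaps and lengths came from GENCODE for mm10, in which 38872 identifiers of the table were found and 184 were not.

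TRAP and total-RNA libraries that carry the same animal number come from the same mouse, and their deviations from the group means correlated in every mouse (r from 0.102 to 0.622). Alternatives were exactTest, DESeq2, RLE factors, no filter, filterByExpr, a single fit over all libraries, the mouse as a block, the likelihood ratio test and leaving out each library or mouse. Leaving out both libraries of EtOH + ABT-888 mouse 1 was added after the data were seen.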

Additional observations from a re-analysis of the deposited data

Results flagged for a closer look

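In groups of 4 libraries, a value was flagged where its gap to its neighbour took up so much of the group's range that chance gives about 1 in 20. Of 40 groups of values, 4 were flagged. Gaps just short of this were not, such as that of Pltp in EtOH + ABT-888_total-RNA. Mouse 1 stood there at 20.44 CPM and the others at 10.18 to 11.95 CPM. Apod stood at 133.6 CPM in EtOH_TRAP of mouse 1, where the other EtOH mice stood at 31.2 to 42.4 CPM. Lcat stood at 0.2785 CPM in EtOH_TRAP of mouse 2, from 6 reads, where the others stood at 1.31 to 1.5 CPM. Lcat stood at 15.44 CPM in EtOH + ABT-888_total-RNA of mouse 1, where the others stood at 11.7 to 12 CPM. Pltp stood at 11.28 CPM in EtOH_total-RNA of mouse 3, where the others stood at 12.5 to 12.6 CPM.

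Pltp differed from Control in opposite directions in TRAP and total-RNA in every treated mouse when set against the Control mean, although EtOH + ABT-888 mouse 1 lay inside the Control range in total-RNA. The log2 fold change in TRAP minus that in total-RNA was 2.535 for EtOH and 1.864 for EtOH + ABT-888. The gene was selected on these values, so the difference was not tested.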

How the results depend on the processing

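Of 1580 values of single genes recomputed under an alternative, 1493 kept their direction and their side of the threshold or, where no test is given, moved by less than the SD between replicates. RLE factors, filterByExpr, the likelihood ratio test and the block changed none of them. With the mouse as a replicate block, 7, 7 and 8 genes differed between pools in Control, EtOH and EtOH + ABT-888, as without pairing, while of all genes 62.5%, 58.8% and 54.3% did, in place of 59.9%, 50.7% and 41.0%. In both interactions it was 0 of 8, with 0.0995% and 0.0% of all genes.

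The single fit over all libraries called 1 gene in place of 5 for EtOH_total-RNA against Control, Apod, and 151 in place of 2482 of all genes. For EtOH + ABT-888_TRAP against Control it called 2 genes in place of 1, and 403 in place of 67 of all genes. The cause was not tested. For EtOH + ABT-888_total-RNA against Control, exactTest, DESeq2 and no filter on low counts each called 2 genes in place of 0, and 544, 621 and 544 of all genes in place of 37. Leaving out 1 library gave 0 to 3 genes for EtOH_TRAP against Control, 0 to 1 for EtOH + ABT-888_TRAP, 3 to 6 for EtOH_total-RNA (3 without Control mouse 1) and 0 to 3 for EtOH + ABT-888_total-RNA (3 without mouse 1 and 2 without mouse 3). Of all genes the same fits called 0.597% to 11.0%, 0.0% to 2.65%, 6.24% to 25.7% and 0.0% to 6.18%. Beside these, Lrp1 passed between pools in EtOH without EtOH_TRAP of mouse 2, which made 8 of 8 genes, and Lpl passed in both pools for EtOH with DESeq2, with no filter on low counts and without EtOH mouse 1.

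Of the log2 fold changes that did not pass, 21 changed sign when 1 library or mouse was left out, 13 of them against EtOH or in an interaction. Between pools, Lrp1 ranged from -0.111 to 0.0124 in Control (above 0 without mouse 1 in total-RNA) and from -0.0381 (without mouse 1 in TRAP) to 0.245 in EtOH + ABT-888. Against Control, Lrp1 ranged from -0.0821 (without mouse 1) to 0.121 in EtOH + ABT-888_TRAP. Apoe ranged from -0.16 (without mouse 1) to 0.699 in EtOH_TRAP, and from -0.184 to 0.0049 in EtOH_total-RNA and -0.119 to 0.0144 in EtOH + ABT-888_total-RNA, both above 0 without Control mouse 1. Lcat ranged from -0.984 to 0.0812 (without Control mouse 1) in EtOH_TRAP, and Lpl from -0.0058 (without mouse 3) to 0.47 in EtOH + ABT-888_total-RNA. Apod ranged from -0.665 to 0.387 for EtOH + ABT-888_TRAP against EtOH_TRAP, and from -0.159 to 0.698 in the interaction of EtOH with pool, in each case with the other sign without EtOH mouse 1. For EtOH + ABT-888_TRAP against EtOH_TRAP, Apoe ranged from -0.402 (without mouse 1) to 0.651, Clu from -0.2001 to 0.0836, Abca1 from -0.44 to 0.0117 and Lpl from -0.383 to 0.153. In total-RNA, Apoe ranged from -0.0645 to 0.121 and Lrp1 from -0.133 (without mouse 1) to 0.0784. In the interaction of EtOH with pool, Apoe ranged from -0.0976 to 0.744, Clu from -0.191 to 0.13, Lcat from -0.251 to 0.686 and Lpl from -0.0515 to 0.202, and in that of EtOH + ABT-888 Clu ranged from -0.0727 to 0.17. With no filter on low counts, Lpl against EtOH in TRAP was -0.00823 and Clu in the interaction of EtOH 0.00357, both close to 0 and with the other sign.

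Depth limits Pltp in TRAP, with 27 to 222 reads per library, and more so Lcat and Pla2g3.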
